A study of Mus musculus with 20 samples.

Results

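A set of 67 probe sets read higher in Grhl3 conditional knockout (cKO) than in wild-type (WT) mouse epidermis in each of 5 skin conditions. They were chosen from these same values. On the scale log2(intensity + 16), the lower of the 2 cKO arrays had to lie above the higher of the 2 WT arrays in every condition, and the mean over all 20 arrays had to be at least 6. Of 35556 probe sets in the deposited table, 35080 were distinct, 30315 of these reached the mean level, and 67 met the rule, which is 0.221% of those examined. Every genotype difference below is therefore a description of how the 67 were chosen, with no test, while their response to injury was not part of the rule and was tested.

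All mice are labelled as strain C57B6, and the tissue is dorsal epidermis of adult skin. The 10 groups have 2 arrays each, labelled as biological replicates, and are the WT and the cKO of 5 conditions: wax-stripped skin on day 4 (labelled male), unaffected and injured areas on day 4 of an imiquimod experiment (labelled female), and unaffected and injured areas of skin recovering from imiquimod on day 8 (labelled male). The tag Krt14cre stands in the titles of both genotypes, and Cre under the Krt14 promoter acts in keratinocytes of the basal layer and their progeny, not in other cells of the sheet. The labels do not say whether both areas came from the same animals, and the age in weeks is not stated.

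Grhl3 belongs to the grainyhead-like transcription factors, which control the late steps of keratinocyte maturation and the formation and closure of the skin barrier. Tape or wax stripping removes the cornified layers and sets off a repair programme of proliferation and barrier rebuilding. Imiquimod activates Toll-like receptor signalling and, applied to mouse skin, gives thickened, inflamed epidermis that resembles psoriasis. A signal from a whole epidermal sheet cannot tell more RNA per cell from more cells of a type.

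The 67 are described by rank and not by gene. The probe table gives 1 symbol for 52 of them, but over the whole table probe sets labelled as ribosomal protein genes lay at a median level percentile of 54.6, and those labelled as olfactory receptors, which skin hardly makes, at 52.1 (205 and 1023 probe sets). Over the arrays, probe sets sharing a symbol had a median correlation of 0.08 (8725 pairs). No gene or sequence is assigned for that reason, and neither the level of Grhl3 nor the markers of epidermal cell types were read. M1 to M67 stand for the members in falling order of their cKO minus WT difference averaged over the 5 conditions; M1 is ID 10526502 and M3 is ID 10561302 in the deposited table.

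Replicate arrays correlated at r between 0.98 and 0.992, and the median intensity of an array lay between 169 and 200 PLIER units. In 5 probe sets, none of them a member, arrays labelled female and male differed without overlap by at least 3 on the log2 scale (3.67 to 6.74) when the injured recovery arrays were left aside. Smaller separations were not counted, and all arrays labelled female belong to the imiquimod experiment of day 4. In all 5 the 4 injured recovery arrays, labelled male, read like the arrays labelled female. These arrays make up 1 of the 5 conditions of the rule. Without that condition 91 probe sets met it, and since fewer conditions can only let more through, this number says nothing about the 67 themselves.

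Separation of the 2 genotypes in a single condition was common. Both cKO arrays lay above both WT arrays in 20.8% of the 30315 probe sets after wax stripping, in 15.3% of unaffected and 23.8% of injured imiquimod skin, and in 16.5% of unaffected and 27.5% of injured recovery skin. The opposite order, both cKO below both WT arrays, was found in 19.7%, 17.7%, 23.9%, 13% and 23.5% of probe sets in the same 5 conditions. Counting conditions with cKO above WT, 34.1% of probe sets had none, 37.6% had 1, 20.3% had 2 and 6.34% had 3. Separation in exactly 4 conditions was seen in 419 probe sets (1.38%), of which 157 overlapped in unaffected recovery skin and 24 in injured recovery skin. The same rule in the other direction, cKO below WT throughout, was met by 42 probe sets (0.139%).

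Many members lay close to the edge of the rule. The smallest of the 5 gaps between the lower cKO and the higher WT array had a median of 0.02 on the log2 scale and was under 0.05 in 51 of the 67. The narrowest gaps inside were 0.00017 in M18 (injured recovery skin), 0.00075 in M50 (injured imiquimod skin) and 0.0018 in M66 (unaffected imiquimod skin). In M18, for example, the injured recovery arrays read 1092 and 815 in WT and 1368 and 1092 in cKO skin, so the lower cKO and the higher WT array print as the same value. Its other pairs stood further apart: 831 and 854 against 974 and 906 after wax stripping, 577 and 558 against 754 and 704 in unaffected imiquimod skin, 785 and 628 against 961 and 935 in injured imiquimod skin, and 647 and 716 against 747 and 865 in unaffected recovery skin. M50 in injured imiquimod skin read 10136 and 10539.5 in WT and 10545 and 10549 in cKO arrays. M66 in unaffected imiquimod skin read 6797 and 6726 in WT and 6982 and 6806 in cKO arrays. Both belong to a group of bright members described below, whose pairs were closest in imiquimod skin. The nearest probe sets outside missed by 0.000044, 0.00091 and 0.0025, and 18 missed by less than 0.01. No distinct probe set below the level minimum met the other conditions. Leaving out an array can only relax the separation, so the number that met the rule rose each time, by most for 5 arrays: leaving out unaffected imiquimod WT replicate 1 or cKO replicate 2 let 101 or 119 probe sets through, and leaving out unaffected recovery WT replicate 2, cKO replicate 1 or cKO replicate 2 let 123, 109 or 111 through.

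The genotype difference was small in most members and large in a few. Averaged over the conditions it ran from 0.08 to 1.11 on the log2 scale, with a median of 0.22. It was at least 0.4 in 13 members and under 0.15 in 22. By condition, the median difference was 0.22 after wax stripping, 0.15 in unaffected and 0.22 in injured imiquimod skin, and 0.17 in unaffected and 0.29 in injured recovery skin, while the median over all 30315 probe sets lay between -0.01 and 0.01 in each. A difference of at least 1.5-fold was reached by 11 members in injured recovery skin, by 5 each in wax-stripped and injured imiquimod skin, by 2 in unaffected recovery skin and by 1 in unaffected imiquimod skin. In no member did it reach 1.5-fold in all 5 conditions, and in 4 (M1, M4, M7 and M12) it was at least 0.3 on the log2 scale throughout. The size of the difference thus varied between conditions even where its sign was fixed: the largest of the 5 fell in wax-stripped skin for 27 members and in injured recovery skin for 25, and in unaffected imiquimod or unaffected recovery skin for 3 and 2. Of the 27, 16 belong to the bright group described below, whose members moved closely together. Outside that group the largest difference fell in wax-stripped skin for 11 members and in injured recovery skin for 24.

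**Figure D1:**
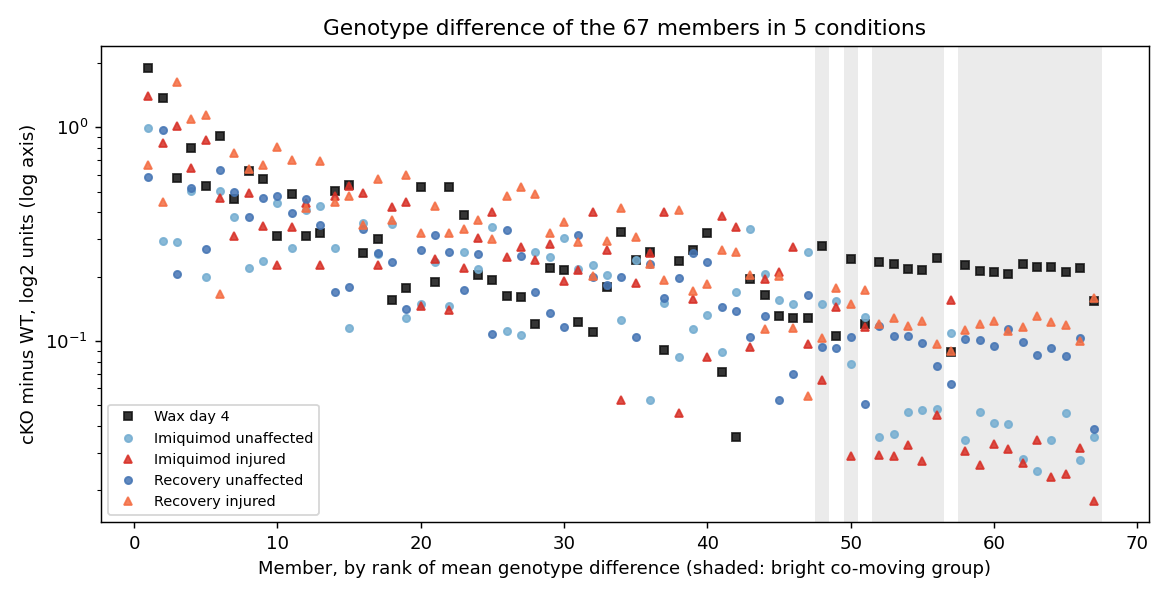
Difference between cKO and WT means (log2 units, log axis) for each of the 67 members in the 5 conditions, with members ordered by their mean difference; shading marks the 17 members of the bright co-moving group. The mean over conditions falls from 1.11 in M1 to 0.08 in M67, and within the shaded group the wax-stripped difference lies above that of injured imiquimod skin in every member.

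M1 had the largest genotype difference of the set. Its WT arrays read 76.6 and 59.5 intensity units after wax stripping, against 348 and 253 in cKO skin. In unaffected imiquimod skin they read 95.1 and 77.3 against 201 and 173 in cKO, and in injured imiquimod skin 133 and 148 against 363 and 432. Each cKO pair lay well clear of its WT pair. Recovery skin was nearer, at 130 and 107 in WT and 198 and 171 in cKO unaffected areas, and at 258 and 205 in WT and 340 and 410 in cKO injured areas. The log2 differences in these 5 conditions were 1.90, 0.99, 1.39, 0.58 and 0.66, with a replicate SD of 0.19 pooled over the 10 groups (n = 2 each). The smallest gap between genotypes was 0.36, the widest smallest gap among the 67.

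M2 differed most after wax stripping. There the WT arrays read 256 and 258 and the cKO arrays 678 and 704. Unaffected imiquimod skin gave 249 and 239 in WT and 283 and 323 in cKO mice, the narrowest separation of its 5, and injured imiquimod skin 437 and 475 against 896 and 768. In recovery the unaffected areas read 151 and 179 in WT and 328 and 350 in cKO, and the injured areas 624 and 583 in WT and 959 and 714 in cKO. Its log2 difference of 1.37 after wax stripping compares with 0.29 in unaffected imiquimod skin (pooled replicate SD 0.13).

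M3 is set apart by its range. It was bright in unaffected skin, at 2555 and 2757 in WT and 3746 and 2819 in cKO arrays of the imiquimod experiment and at 3180 and 3342 in WT and 4000 and 3538 in cKO recovery arrays. In injured imiquimod skin it read 36.7 and 24.1 in WT and 81.0 and 72.2 in cKO mice. The pairs did not overlap in either area, but the intensity in injured skin was a small fraction of that in unaffected skin in both genotypes. In injured recovery skin the arrays read 119 and 38.1 in WT and 164 and 371 in cKO, and after wax stripping 270 and 475 in WT and 594 and 497 in cKO. Its log2 genotype difference was 1.63 in injured recovery skin and 1.01 in injured imiquimod skin, against 0.21 and 0.29 in the unaffected areas, and its replicates varied more than those of the other 5 of highest rank (pooled SD 0.45).

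M4 was dim in unaffected and wax-stripped skin and brighter in injured imiquimod and injured recovery skin. After wax stripping WT arrays read 73.9 and 75.4 and cKO arrays 144 and 139. Unaffected imiquimod skin gave 94.6 and 85.6 in WT and 179 and 99.5 in cKO, so 1 cKO array stood far above the other. Injured imiquimod skin gave 301 and 218 in WT and 406 and 412 in cKO, unaffected recovery skin 49.0 and 68.5 against 90.1 and 90.1, and injured recovery skin 264 and 172 against 514 and 433. The log2 difference was largest, 1.09, in injured recovery skin (pooled replicate SD 0.26).

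M5 separated most in injured skin. Its WT arrays stayed within 137 to 187 in all 5 conditions, while the cKO arrays reached 370 and 329 in injured imiquimod skin and 393 and 361 in injured recovery skin. In unaffected imiquimod skin the WT arrays read 137 and 158 and the cKO arrays 180 and 163, and in unaffected recovery skin 156 and 148 against 195 and 178. Wax-stripped skin gave 150 and 146 in WT and 263 and 185 in cKO. The genotype difference was 1.14 in injured and 0.27 in unaffected recovery skin, and 0.87 in injured and 0.20 in unaffected imiquimod skin (pooled replicate SD 0.13).

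M6, the brightest of the 6, went the other way in recovery. Its WT arrays read 2396 and 2308 after wax stripping against 4778 and 4143 in cKO. Unaffected imiquimod skin gave 1661 and 1475 against 2633 and 1888, and injured imiquimod skin 3851 and 3827 against 6241 and 4532. Unaffected recovery skin gave 1738 and 1642 in WT and 2372 and 2904 in cKO, a log2 difference of 0.63. In injured recovery skin the 4 arrays were close, at 5142 and 5550 in WT and 6229 and 5771 in cKO, a difference of 0.17 (pooled replicate SD 0.18).

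**Figure D2:**
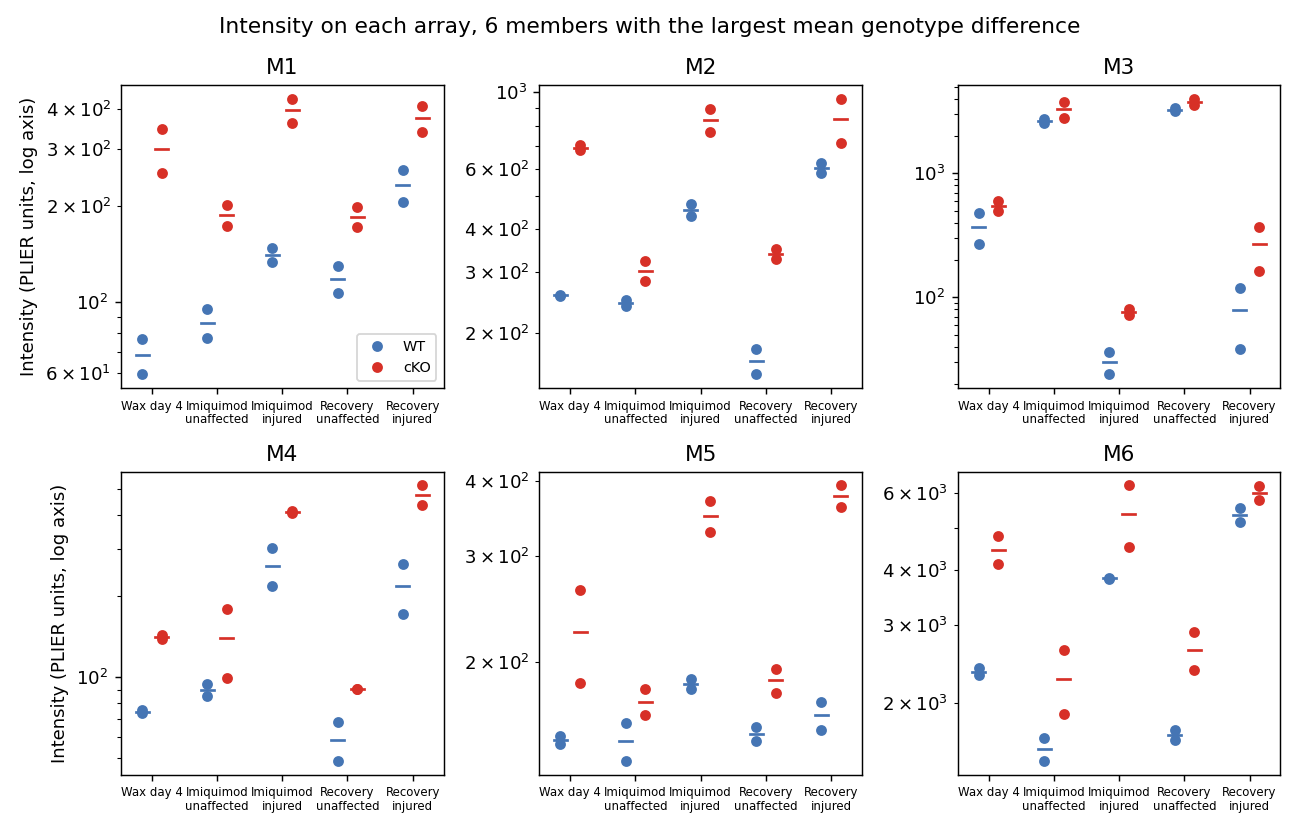
Intensity (PLIER units, log axis) on every array for the 6 members with the largest mean genotype difference; blue points are WT and red points cKO arrays, 2 per group, and short lines are group means. Every red pair lies above its blue pair, as the rule requires, with M3 spanning 24.1 to 4000 units and M5 separating most in injured skin.

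The 67 covered a wide range of levels and did not form 1 pattern. The mean intensity of a member ran from 64.8 to 10302 units, and its level from percentile 6.25 of the 30315 probe sets upward, with a median at percentile 87.7. Replicates varied by a pooled SD of 0.09 on the log2 scale in the median member, against 0.13 in the median of all probe sets, which a rule without overlap between pairs favours. A mean log2 level of at least 12 was reached by 18 members.

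Of these 18, 17 formed a group that moved closely together. They were found by joining members whose log2 values correlated at 0.99 or more over the 20 arrays, a description made after the values were seen. The joining left 49 separate units: this group of 17, 2 pairs (M20 with M22, and M34 with M38) and 46 single members. At a correlation of 0.98 the largest unit held 21 members. Within the 17 the pairwise r had a median of 0.998 and a lowest value of 0.984, and the deviations of arrays from their group means correlated at a median of 0.92 and a lowest value of 0.50, against a median of 0.20 among the other 50 members. All 17 were read on the same arrays, so these correlations are a description. Counts are therefore given below with and without the 17. In the deposited table, 44 probe sets followed the mean of the group at r of at least 0.99, all at a mean log2 level between 12.4 and 13.5, and the other 27 were kept out by overlaps: all 27 separated the genotypes after wax stripping, but 8 did so in injured imiquimod skin.

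The bright group differed by little between genotypes. The geometric mean of its 17 members read 7476 and 7489 units in the WT and 9063 and 8409 in the cKO arrays after wax stripping, a median log2 difference of 0.22. In unaffected imiquimod skin it read 7060 and 7083 in WT and 7322 and 7292 in cKO, and in injured imiquimod skin 10751 and 10903 against 11133 and 11002, median differences of 0.04 and 0.03. In recovery it read 5765 and 5675 against 5967 and 6258 in unaffected areas and 8704 and 8187 against 9016 and 9347 in injured areas, with median differences of 0.10 and 0.12. The wax-stripped pairs stood furthest apart. On single members of this group, M50 read 6974 and 7045 in WT and 8630.0 and 7974 in cKO arrays after wax stripping, 6418 and 6229.7 against 6636 and 6713 in unaffected imiquimod skin, 5245 and 5068 against 5434 and 5653 in unaffected recovery skin, and 8019.5 and 7482 against 8396 and 8784 in injured recovery skin. M66 read 7187 and 7103 against 8585 and 8054 after wax stripping, 10167 and 10018 against 10390.2 and 10240.0 in injured imiquimod skin, 5692 and 5647 against 5960.5 and 6224 in unaffected recovery skin, and 8257 and 7820.5 against 8477 and 8747 in injured recovery skin. In both, the 5 conditions stood in the same order of intensity as in the group mean, within each genotype. The genotype difference of both was largest after wax stripping (0.24 in M50 and 0.22 in M66). After quantile normalization of the arrays none of the 17 met the rule: all 17 still separated after wax stripping and in unaffected imiquimod skin, 16 in injured recovery skin, 7 in unaffected recovery skin and 1 in injured imiquimod skin. The median of all 727 probe sets with a mean log2 level of at least 12 was 0.03 higher in cKO than WT arrays in injured imiquimod skin and 0.05 higher in injured recovery skin, with no more than 0.02 in the other conditions; the part of array scaling in the differences of this group was not tested beyond this.

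**Figure D3:**
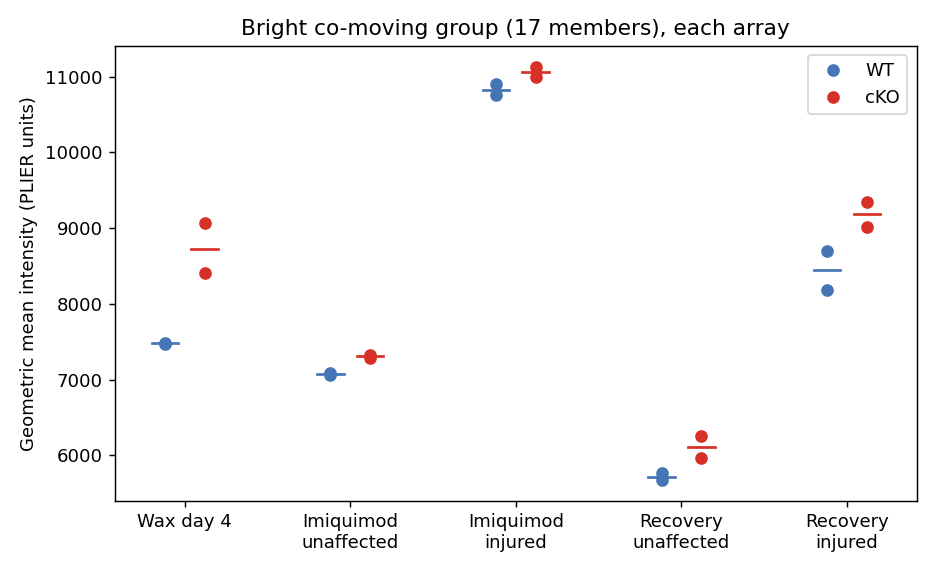
Geometric mean intensity (PLIER units) of the 17 members of the bright co-moving group on each array, by condition; blue points are WT and red points cKO arrays, and short lines are the group's mean over both. The gap between genotypes is widest after wax stripping and narrow in imiquimod skin, while injured imiquimod skin has the highest level (10827 units in WT and 11067 in cKO).

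The members outside this group met the rule more often under another scaling. After quantile normalization 39 probe sets met the rule, 30 of them among the 67. The first 17 members by rank were all kept, as were M19, M20, M22, M23, M25, M26, M28, M36, M39, M41, M44, M49 and M51. The other 20 members outside the bright group were lost, among them M18, whose gap was the narrowest.

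**Figure D4:**
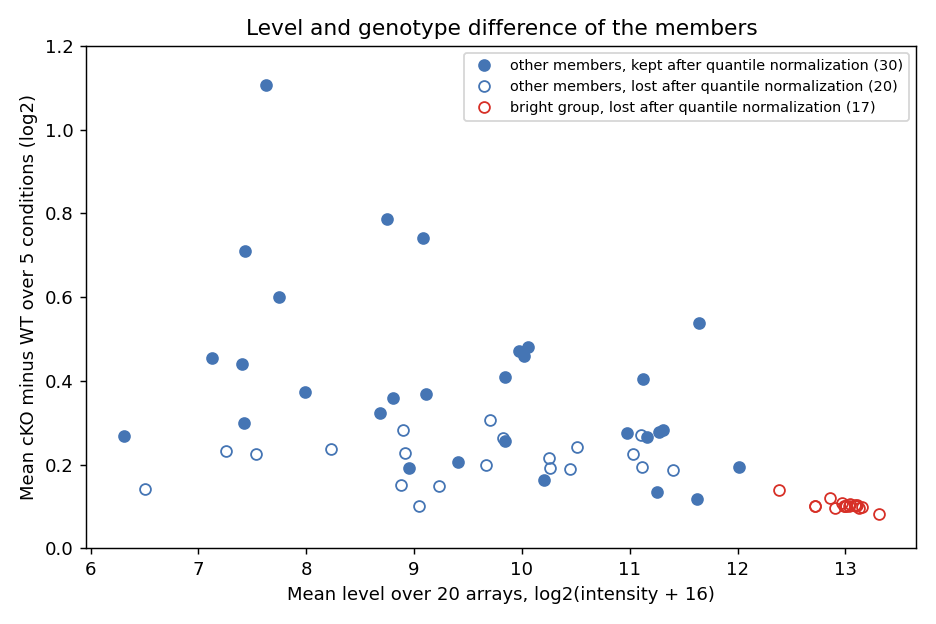
Mean level over the 20 arrays (log2(intensity + 16)) and mean cKO minus WT difference over 5 conditions (log2) for each member; filled points met the rule again after quantile normalization and open points did not. All 17 bright members (red) are open, at levels from 12.39 upward and differences below 0.14, while the 30 filled points include every member with a difference above 0.31.

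The response to imiquimod on day 4, injured minus unaffected and averaged over both genotypes, did not enter the rule. Injured skin read higher in 46 members and lower in 14 (limma, Benjamini-Hochberg adjusted p under 0.05 over 30315 probe sets), against 21% of all probe sets higher and 22.6% lower. The median change was 0.55 on the log2 scale among the 67 and 0.01 over all probe sets. All 17 of the bright group rose, by 0.50 to 0.78, and of the other 50 members 29 rose, 14 fell and 7 were not called. The median change of those 50 was 0.34. The lower replicate spread of the members makes calls more frequent at a given change.

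M4 had the largest rise, 1.43 ± 0.16 on the log2 scale (SE; limma adjusted p = 6.88e-06), followed by M36 at 1.29 ± 0.06, M6 at 1.27 ± 0.12 and M2 at 1.13 ± 0.09. M3 had the largest fall, -5.50 ± 0.28 (limma adjusted p = 4.98e-09), which is also the largest fall of any tested probe set in this comparison. In WT skin alone the change was -5.86 and in cKO skin alone -5.14, on the log2 scale. M26 followed at -1.40 ± 0.08 and M7 at -1.05 ± 0.09. Members that read higher in cKO skin thus included some that imiquimod raised and some that it lowered. The share lowered, 20.9%, is too near the 22.6% of all probe sets to be read as a result about the members.

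In recovery skin on day 8, 44 members were higher and 8 lower in the injured than in the unaffected area, against 23.6% and 32.9% of all probe sets. The median was 0.56 among the 67 and -0.10 over all probe sets. The bright group was higher in all 17 members, by 0.50 to 0.61, and the other 50 split into 27 higher, 8 lower and 15 not called (median 0.29). The largest difference upward was again in M4, at 1.91 ± 0.16 (SE; limma adjusted p = 8.12e-07), and downward in M3, at -4.55 ± 0.28 (limma adjusted p = 5.41e-08). This comparison rests on the injured recovery arrays that read against their labelled sex, and no version without them exists. In the 5 probe sets that parted the labelled sexes, the unaffected recovery arrays read like the other arrays labelled male. The areas compared therefore differ in those probe sets too, and injury cannot be told apart from that difference.

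The 2 responses come from separate arrays. Of the 46 members raised on day 4, 42 (91.3%) were also higher in injured recovery skin, which is 95.5% of the 44 higher there, and the corresponding shares over all probe sets were 69.1% and 61.5%. Lower in both were 7 members (10.4%), against 12.8% of all probe sets. None of the 67 was called in opposite directions, against 716 (2.36%) of all probe sets. Both of these shares are too near those of all probe sets to be read as a result about the members. Outside the bright group 25 of 50 members were higher in both comparisons, 86.2% of those raised on day 4 and 92.6% of those higher in injured recovery skin.

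**Figure D5:**
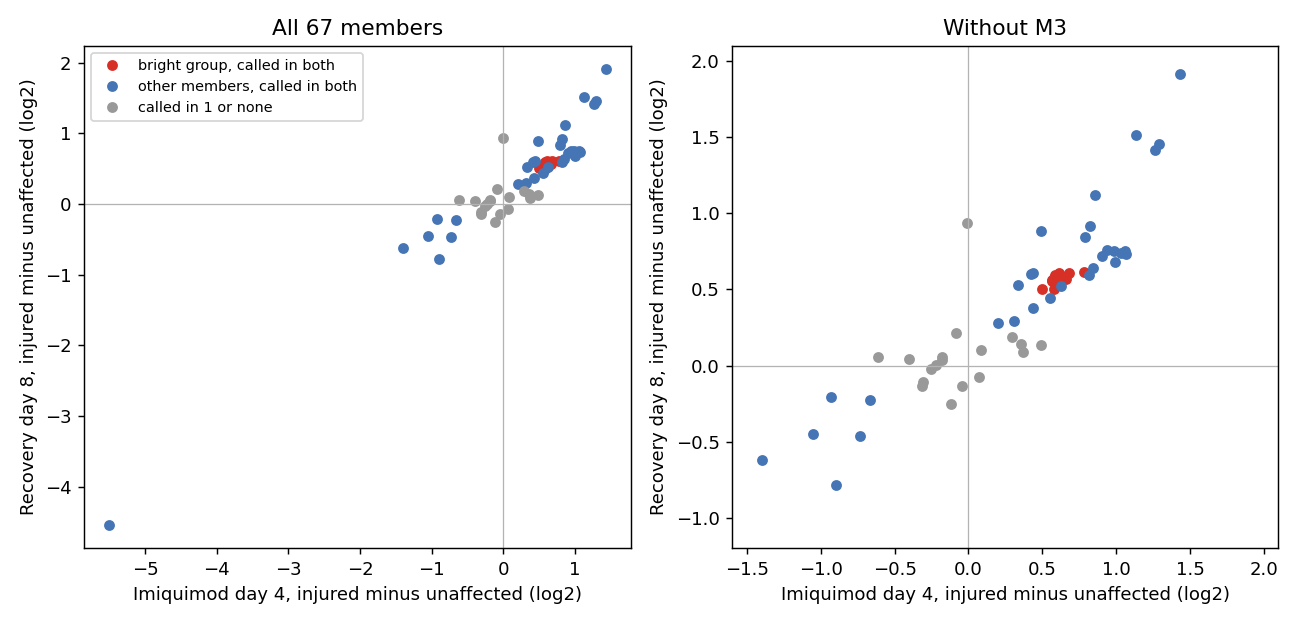
Log2 difference between injured and unaffected areas on imiquimod day 4 (horizontal axis) and in recovery on day 8 (vertical axis), averaged over both genotypes, for all 67 members (left) and without M3 (right). Red points are the bright group and blue points other members called in both comparisons; 42 members lie in the upper right quadrant as called in both, and M3 lies alone at -5.50 and -4.55.

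Wax-stripped skin was set against unaffected recovery skin, since no array of the series held untouched skin of the wax experiment. The groups differ in day and experiment as well as in treatment, which cannot be told apart. In this comparison 37 members were higher and 11 lower after wax stripping, against 15.9% and 24.9% of all probe sets, with medians of 0.36 among the 67 and -0.10 over all probe sets. Without the injured recovery arrays the counts were 38 and 10. The bright group was higher in all 17, by 0.39 to 0.51, and of the other 50 members 20 were higher and 11 lower (median 0.12). Unaffected recovery skin had the lowest level of the bright group. Its geometric mean there was 5720 units in WT and 6111 in cKO. It was 7072 and 7307 in unaffected imiquimod skin, nearer the 7483 and 8730 of wax-stripped skin. Wax-stripped skin was not tested against unaffected imiquimod skin.

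M36 had the largest rise after wax stripping, 0.96 ± 0.06 (SE; limma adjusted p = 5.44e-07). Its wax-stripped arrays read 695 and 716 in WT and 851 and 848 in cKO skin, against 359.8 and 359.5 in WT and 400.2 and 450.2 in cKO unaffected recovery skin. Injured imiquimod skin read 893 and 886 in WT and 1021 and 1112 in cKO, so M36 was high in injured skin of each kind. Its unaffected imiquimod arrays read 383 and 380.1 in WT and 405 and 388 in cKO, and its injured recovery arrays 1099.8 and 938 in WT and 1234 and 1154 in cKO. The M3 difference after wax stripping was -2.94 ± 0.28 on the log2 scale (limma adjusted p = 5.23e-06), a smaller shift than either of the other 2 given above.

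Imiquimod and wax responses, which share no arrays, were called upward together in 35 members. These were 76.1% of those raised by imiquimod and 94.6% of those higher after wax stripping (52% and 68.5% over all probe sets). The wax comparison rests on the unaffected recovery arrays. There 40 members (59.7%) read lower than in unaffected imiquimod skin, against 11.9% of all probe sets. How much of the shared rise comes from those arrays was not tested. Outside the bright group 18 of 50 members were called upward in both, 62.1% of those raised by imiquimod and 90% of those higher after wax stripping. The responses were called downward together in 7 members (10.4%, against 10.6% of all probe sets). In 2 members (2.99%, against 1.73% of all probe sets) they were called in opposite directions, shares too near each other to be read as a result about the members: M19 rose with imiquimod (0.37 ± 0.09) and was lower after wax stripping (-0.26 ± 0.09), and M37 fell with imiquimod (-0.61 ± 0.07) and was higher after wax stripping (0.27 ± 0.07; SE, limma adjusted p between 8.89e-06 and 0.0429). These 2 were picked after their values were seen.

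The genotypes also differed in how M1 read after wax stripping, which follows from the values that chose it. Against unaffected recovery skin of the same genotype the log2 difference was -0.68 in WT and 0.64 in cKO skin, and averaged over both the difference was -0.02 ± 0.12 (SE; limma adjusted p = 0.921).

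Unaffected skin of the recovery experiment was compared with unaffected skin of the imiquimod experiment. Day and labelled sex differ with the experiment and cannot be told apart from it. Here 40 members were lower and 3 higher in the recovery experiment, while 11.9% of all probe sets were lower and 16.6% higher, and the medians were -0.28 among the 67 and 0.06 over all probe sets. All 17 of the bright group were lower (log2 differences of -0.32 to -0.22), as were 23 of the other 50 members, whose median was -0.20. The 3 higher were M27 (0.58 ± 0.08), M25 (0.34 ± 0.09) and M8 (0.27 ± 0.10; SE, limma adjusted p between 0.000326 and 0.047). This count of 3 became 1 without unaffected imiquimod WT replicate 1, without unaffected imiquimod cKO replicate 2 and without unaffected recovery cKO replicate 2.

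M27 read highest in unaffected recovery skin in each genotype. Its unaffected recovery arrays read 1221.5 and 932 in WT and 1233 and 1313 in cKO, against 769 and 727 in WT and 806 and 806 in cKO unaffected imiquimod skin. The wax-stripped arrays lay between, at 827 and 832 in WT and 953 and 905 in cKO. Injured skin read 685 and 610 in WT and 734 and 842 in cKO on imiquimod day 4, and 808 and 813 in WT and 1214 and 1140 in cKO recovery skin.

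M35 had the largest fall in the same comparison, -0.88 ± 0.08 (SE; limma adjusted p = 2.39e-05). Its unaffected recovery arrays read 673 and 730 in WT and 749 and 760.0 in cKO skin and stood alone: the other 16 arrays lay between 1165 and 1702. Injured imiquimod skin, at 1324 and 1196 in WT and 1374 and 1496 in cKO, was close to unaffected imiquimod skin, at 1237 and 1248 in WT and 1449 and 1489 in cKO. The M35 difference between recovery areas, 0.94 ± 0.08, and that between wax-stripped and unaffected recovery skin, 0.88 ± 0.08, share those low arrays.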

How the data were processed

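Dorsal epidermis was separated with dispase and its RNA measured on Affymetrix Gene ST arrays (labels' protocols). The authors deposited 1 intensity per probe set and array, not log-transformed, computed in Affymetrix Expression Console by PLIER, per the submitters' processing notes; software versions and any scaling between arrays were not given in the sources used here. Arrays have no read depth, so their number (2 per group) limits precision.

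Values were taken as deposited, with 16 added before log2, which understates changes of dim probe sets. Of probe sets with identical values the first was kept. Responses were fitted with limma 3.58.1 in R 4.3.3 as group means over all 20 arrays (10 residual degrees of freedom) with contrasts averaging both genotypes and Benjamini-Hochberg adjustment over 30315 probe sets. The fit was tested on simulated data. The members, the comparisons and the lists were chosen with earlier results of these data known, and the bright group, the difference between responses and the counts outside that group were added after the values were seen. Values of every array are given in the text for M1 to M6, for the members with the largest called rise and fall of a comparison and for the narrowest gaps; the rest are given by range. The planned gene names and cell type markers were not used because the values did not bear out the pairing of IDs and symbols. Alternatives were pseudocounts of 1 and 64, quantile normalization, other level minimums, trended and robust variance estimates, fits on only the arrays compared, a block for the replicate number, and omission of single arrays.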

Additional observations from a re-analysis of the deposited data

Results flagged for a closer look

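The difference between the imiquimod and the recovery response, a comparison added after the values were seen, was tested directly over both genotypes. Of the 67 members, 2 (2.99%) responded more strongly upward on day 4 and 10 (14.9%) less so or more strongly downward. The shares over all probe sets were 12.7% and 13% (limma, Benjamini-Hochberg adjusted p under 0.05). That of the 10 is too near to be read as a result about the members. The 2 were M34 and M38, which form a co-moving pair. Each of the 10 (M2, M7, M24, M26, M28, M33, M35, M37, M39 and M41) lies outside the bright group, and 0 of its 17 members were called. The count of 2 was 1 without unaffected imiquimod WT replicate 1, unaffected imiquimod cKO replicate 1, injured imiquimod cKO replicate 2, unaffected recovery WT replicate 1, WT replicate 2 or cKO replicate 2, injured recovery WT replicate 2 or injured recovery cKO replicate 1, and 4 or 5 without wax-stripped cKO replicate 1 or replicate 2, unaffected recovery cKO replicate 1 or injured recovery WT replicate 1.

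In M34 the difference of responses was 0.34 ± 0.09 on the log2 scale (SE; limma adjusted p = 0.0138). Its injured imiquimod arrays read 3515 and 3424 in WT and 3574 and 3625 in cKO skin, against 1594 and 1620 in WT and 1791 and 1718 in cKO unaffected skin. In recovery the injured areas read 2044 and 1745 in WT and 2520 and 2546 in cKO, against 1236 and 1211 in WT and 1336 and 1484 in cKO unaffected areas. Wax-stripped arrays read 2067 and 2007 in WT and 2653 and 2452 in cKO.

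In M35 it was -0.95 ± 0.11 (SE; limma adjusted p = 0.000168), where the unaffected recovery arrays described above were the low ones. In M2 it was -0.38 ± 0.13 (SE; limma adjusted p = 0.0446), a call lost in 20 of the 28 alternatives, over which the adjusted p ran from 0.011 to 0.102.

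All 3 rest on the injured recovery arrays, which read against their labelled sex; the part of this in the differences was not tested.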

How the results depend on the processing

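The number of members was 39 after quantile normalization, and 154, 171, 114 and 224 when the rule left out wax-stripped, unaffected imiquimod, injured imiquimod or unaffected recovery skin; leaving out single arrays gave 69 to 123. Other pseudocounts, other level minimums and keeping repeated probe sets gave 65 to 71, and the median genotype differences moved by less than the replicate SD under each pseudocount and under quantile normalization. In the bright group that SD (median 0.04) is near the smaller differences. Quantile normalization moved the group's median difference from 0.22 to 0.23 after wax stripping. In unaffected and injured imiquimod skin it went from 0.04 and 0.03 to 0.05 and 0.009. In unaffected and injured recovery skin it went from 0.10 and 0.12 to 0.07 and 0.09. Counting only members outside the bright group, those higher were 29 for imiquimod, 27 for recovery and 20 for wax, and those lower in unaffected recovery skin were 23. With only the arrays compared, 1 member was higher in unaffected recovery skin (1 to 3 leaving out single arrays, where a lone array is taken to vary like the other groups). For the difference of responses, the count upward was 4 with a pseudocount of 64, with quantile normalization, with a mean of at least 7 and with only the arrays compared, and 6 with trend and robust settings (1 to 5 leaving out single arrays). Signs turned in uncalled values near 0: for M1 after wax stripping, 0.0379 with a pseudocount of 64, 0.107 after quantile normalization and -0.126 to 0.0918 without single arrays; for M5 after wax stripping, -0.0204 to 0.218 without single arrays, and in unaffected skin -0.0189 after quantile normalization; for M35 with imiquimod, -0.0444 to 0.0279, and for M36 in unaffected skin, -0.0352 to 0.0468, without single arrays; for M50, -0.023 for the difference of responses after quantile normalization. With the replicate number as a block, 46 members rose and 14 fell with imiquimod, 44 and 8 in recovery, and 38 and 10 after wax stripping; deviations of same-numbered arrays correlated between groups at -0.25 to 0.29 (45 pairs), so the numbers are not taken as pairs. With 2 arrays per group, small differences in dim probe sets are not resolved. The causes of these shifts were not tested.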
